A study of Mus musculus with 6 samples.

Results

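The genes described here encode Nodal and BMP ligands, a co-receptor and a receptor, their antagonists and their direct target genes in mouse embryonic stem (ES) cells without Tex19.1. They are the rows of the authors' deposited table whose symbol is Nodal, Bmp4, Tdgf1, Acvr2b, Lefty1, Lefty2, Smad7, Id1, Id2 or Id3, and all 10 have a row among the 10128 genes of that table. RNA sequencing compared 3 libraries of Tex19.1-/- cells with 3 libraries of Tex19.1+/- cells. Cells of both genotypes derive from the E14Tg2a line of 129/Ola background and were used at passages 12 to 18. They were grown on gelatin in serum with leukaemia inhibitory factor (LIF)-conditioned medium. Tex19.1, found in mammals only, is active in germ cells and pluripotent cells, and the comparison asks which transcripts differ when no working copy is left. The cells it is set against are heterozygous, so they carry a single working copy and are not wild type. The labels do not say whether the 3 libraries of a genotype come from separate clones or cultures, so p-values measure the spread between these libraries.

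Nodal is a secreted ligand of the TGF-beta superfamily that signals through activin receptors together with the co-receptor Cripto, the product of Tdgf1. The receptors phosphorylate SMAD2 and SMAD3, which act with SMAD4 and FOXH1 on target genes that include Nodal itself and Lefty1 and Lefty2, whose products block the ligand and so close a negative feedback loop. BMP4 acts through BMP receptors and the SMAD1 and SMAD5 proteins on the Id genes. Id proteins sequester E-protein transcription factors, and in ES cells grown in serum they are known for restraining neural differentiation.

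The authors' deposited table gives 1 log2 fold change, 1 mean level, 1 p-value and 1 adjusted p for each gene and no value per library, so neither the depth nor the spread of single libraries is known. The direction of the fold change is not named in the header and was read from the targeted gene: Tex19.1 has the lowest log2 fold change of the authors' deposited table, -6.92, and is therefore no independent check of the labels. Positive values below mean higher in Tex19.1-/- cells. An error is given as the standard error that the authors' p-value implies under a normal approximation, which is the size of the log2 fold change over the normal quantile of the p-value. Levels per genotype are those implied by the authors' mean in CPM, read counts scaled by library depth, and the fold change, with both genotypes given equal weight.

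Going by the adjusted p of the authors' deposited table, with a threshold of 0.05, 8 of the 10 genes changed: 3 were higher (Lefty1, Lefty2 and Id2) and 5 were lower (Bmp4, Id1, Nodal, Tdgf1 and Id3) in Tex19.1-/- cells. Of all 10128 genes, 51.7% passed in either direction, 25.2% higher and 26.5% lower, so a call as such is common here. The median size of the 10 log2 fold changes was 0.29, against 0.11 over all genes of the authors' deposited table. Bmp4 was larger in size than 96.8% of all genes, Id1 than 95.2% and Lefty1 than 94.3%. A stricter criterion compared each fold change with the spread of fold changes among the genes nearest in mean level; 6.21% of all genes met it, 1.89% higher and 4.32% lower. Under it Lefty1 was higher (adjusted p = 0.00028) and Bmp4 and Id1 were lower (adjusted p = 2.12e-06 and 0.000212). By the same criterion, adjusted p was 0.159 for both Nodal and Lefty2, 0.198 for Tdgf1, 0.502 for Id2 and 0.972 for Id3. These p-values rest on a normal approximation. In size, Bmp4 exceeded 98.0% of the genes of like level, Id1 99.3% and Lefty1 95.7%. The small p-values of these 3 genes therefore overstate how rare such changes are at their levels. The genes were chosen with earlier results of these data known, so these counts describe them and test nothing.

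**Figure D1:**
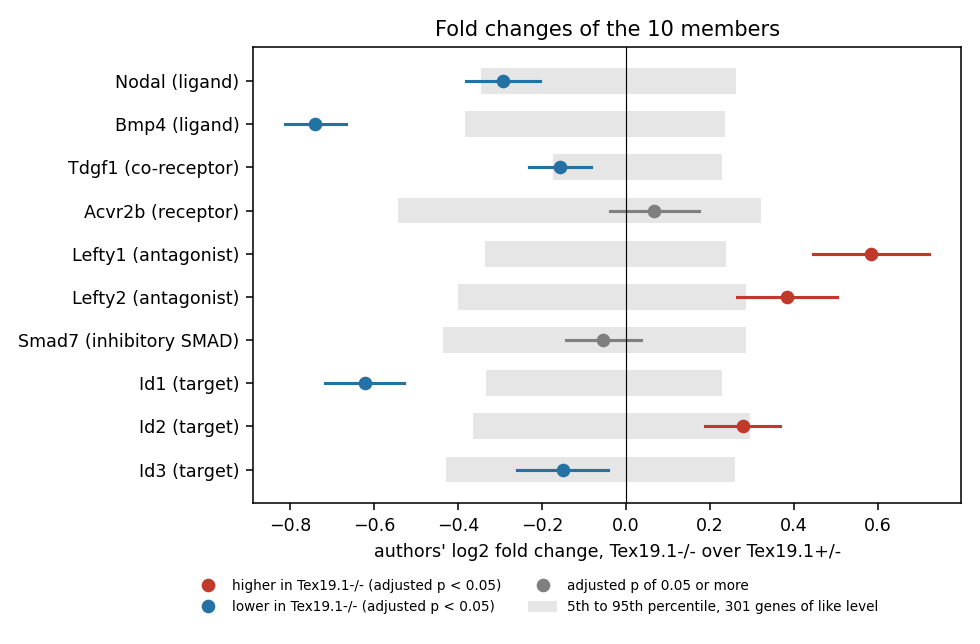
Log2 fold change of each gene, Tex19.1-/- over Tex19.1+/-, with the 95% interval implied by the authors' p-value as a line, ordered by role. Grey bars span the 5th to 95th percentile of the genes of like mean level; Bmp4 and Id1 lie wholly to the left of their bars and Lefty1 wholly to the right.

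Both ligand genes fell. Bmp4, the only BMP ligand gene of the table among the 8 looked for, had an implied level of 69.9 CPM in Tex19.1-/- cells, against 117 CPM in Tex19.1+/- cells. That is a difference of -0.74 on the log2 scale of the authors' deposited table (implied standard error 0.037, adjusted p = 8.02e-89), or a 1.67-fold lower level. Nodal was at 80.8 CPM in Tex19.1-/- cells and 99.0 CPM in Tex19.1+/- cells. The authors' deposited table gives it a log2 fold change of -0.29 (implied standard error 0.045, adjusted p = 5.27e-10), a decrease whose 95% interval, from -0.38 to -0.20, does not overlap that of Bmp4, from -0.81 to -0.67. Once the median of the 20 nearest genes was subtracted, Nodal stood at -0.17 and still passed. The relation between the errors of these genes is unknown, and the difference between them was not tested. Bmp4 lies on chromosome 14 from 46383520 to 46390669 on the minus strand (ENSMUSG00000021835.15) and Nodal on chromosome 10 from 61417972 to 61425338 on the plus strand (ENSMUSG00000037171.6), both on GRCm38, the assembly that mm10 names. Gm15217, a gene on the opposite strand, shares 89 bases with the exons of Bmp4, 3.96% of their length, and no source used here gives the strand setting of the counting.

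The promoter of Bmp4, the gene with the largest change of the 10, is shown as a stretch of 300 bases from RefSeq (GRCm38.p6, chr14:46390620-46390919, minus strand), from 250 bases before the annotated start to 50 after it. The letters AATNCACA (a FOXH1 site), GGCGCC (a GC-rich site of the BMP-responsive SMADs) and CAGAC (the SMAD binding element) were searched on both strands, and none of them is in this window, which therefore has no capitals. The window of Nodal had no match to any of the 3 either.
Bmp4: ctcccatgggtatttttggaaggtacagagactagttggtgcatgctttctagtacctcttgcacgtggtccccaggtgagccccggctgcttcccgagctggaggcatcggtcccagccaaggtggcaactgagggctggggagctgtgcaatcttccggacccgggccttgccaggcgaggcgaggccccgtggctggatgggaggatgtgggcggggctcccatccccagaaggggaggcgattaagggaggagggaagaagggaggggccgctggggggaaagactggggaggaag

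Of the receptor side, the co-receptor gene fell slightly and the receptor gene did not pass. Tdgf1, which encodes Cripto, was the most abundant of the 10 per length, at a mean of 339 CPM per kb of exon, and lies on chromosome 9 from 110939603 to 110946158 on the minus strand (ENSMUSG00000032494.12). Its implied level was 842 CPM in Tex19.1-/- cells and 939 CPM in Tex19.1+/- cells, a change of -0.16 on the log2 scale of the authors' deposited table (implied standard error 0.037, adjusted p = 0.000105). That decrease did not pass with Bonferroni adjustment (adjusted p = 0.285) or once the median of the 20 nearest genes was subtracted (log2 fold change -0.054, adjusted p = 0.223). Of the windows of 50 bases in its transcripts, 8.86% also occur in those of the pseudogene Tdgf1-ps1, so some reads could have been assigned to either or to none. Acvr2b, a type II receptor shared by Nodal, activin and BMP ligands, lies on the same chromosome from 119402118 to 119434995 on the plus strand (ENSMUSG00000061393.14). It had the lowest level per length of the 10, a mean of 4.47 CPM per kb, and implied levels of 18.0 CPM in Tex19.1-/- cells and 17.1 CPM in Tex19.1+/- cells. The change of 0.068 on the log2 scale of the authors' deposited table did not pass (implied standard error 0.054, 95% interval -0.04 to 0.17, adjusted p = 0.299).

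Both Lefty genes, the feedback antagonists of Nodal, rose, while Nodal itself fell. Lefty1 was at 141 CPM in Tex19.1-/- cells, against 94.2 CPM in Tex19.1+/- cells. The authors' deposited table gives it a log2 fold change of 0.58 (implied standard error 0.071, adjusted p = 1.9e-15), a level 49.7% higher and the largest rise of the 10. Lefty2 was at 53.3 CPM in Tex19.1-/- cells and 40.8 CPM in Tex19.1+/- cells, a change of 0.38 on the log2 scale of the authors' deposited table (implied standard error 0.061, adjusted p = 2.32e-09). The 95% intervals of the pair overlap, 0.44 to 0.72 for Lefty1 and 0.26 to 0.50 for Lefty2. Their implied errors were large for their levels: 1.87 times the median of the genes of like level for Lefty1 and 1.43 times for Lefty2, against 0.926 to 1.21 times for the other 8 genes.

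Lefty2 and Lefty1 lie near each other on the plus strand of chromosome 1, from 180893108 to 180899103 (ENSMUSG00000066652.5) and from 180935022 to 180938400 (ENSMUSG00000038793.8), 35.9 kb apart on GRCm38. Their coding sequences, 1104 bases each in GENCODE M21, align without a gap and are identical at 1014 positions, or 91.8%. The longest identical run is 140 bases, and a window of 150 bases, the length of a read here, holds a median of 5 differences. No window of that length was identical, but 17.9% of the 50-base windows in Lefty1 transcripts also occur in Lefty2, so the counts of the pair may not be fully independent. The least alike window of 150 bases of the coding sequences is shown because it is where reads of that part can best tell these genes apart. The untranslated parts were not aligned. Capitals mark the bases that differ between the pair, and positions count from 1 at the first base of the start codon. This window, positions 63 to 212, holds 40 differences.
Lefty1: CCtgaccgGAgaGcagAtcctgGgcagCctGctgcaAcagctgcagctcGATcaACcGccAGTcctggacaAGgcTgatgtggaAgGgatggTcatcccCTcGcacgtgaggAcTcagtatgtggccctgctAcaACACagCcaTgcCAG
Lefty2: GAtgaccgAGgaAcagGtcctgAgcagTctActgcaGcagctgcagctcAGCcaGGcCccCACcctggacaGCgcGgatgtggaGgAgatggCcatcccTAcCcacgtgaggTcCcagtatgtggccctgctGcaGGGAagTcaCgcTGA

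The 3 Id genes, direct targets of BMP signalling, did not move together. Id1 was at 49.4 CPM in Tex19.1-/- cells, against 76.0 CPM in Tex19.1+/- cells. The authors' deposited table gives it a log2 fold change of -0.62 (implied standard error 0.048, adjusted p = 5.04e-37), a 1.54-fold lower level. Id3 was at 33.8 CPM in Tex19.1-/- cells and 37.5 CPM in Tex19.1+/- cells, a change of -0.15 on the log2 scale of the authors' deposited table (implied standard error 0.055, adjusted p = 0.0147). That fall was lost at a threshold of 0.01 and with Bonferroni adjustment (adjusted p = 1), and its sign turned to 0.018 (adjusted p = 0.812) once the median of the 20 nearest genes was subtracted. Id2 rose, with 61.4 CPM in Tex19.1-/- cells and 50.6 CPM in Tex19.1+/- cells, a change of 0.28 on the log2 scale of the authors' deposited table (implied standard error 0.045, adjusted p = 6.14e-09). The 95% intervals of the 3 genes, -0.72 to -0.53 for Id1, -0.26 to -0.04 for Id3 and 0.19 to 0.37 for Id2, do not overlap. Id1 lies on chromosome 2 from 152736251 to 152737410 on the plus strand (ENSMUSG00000042745.9), Id2 on chromosome 12 from 25093799 to 25097140 on the minus strand (ENSMUSG00000020644.9) and Id3 on chromosome 4 from 136143497 to 136145755 on the plus strand (ENSMUSG00000007872.3).

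The promoters of Id2 and Id3 are shown because the deposited fold changes of these paralogs had opposite signs, and because Id1 has no window. Neither Id2 nor Id3 passed against genes of like level, and the fall of Id3 was lost under the alternatives above. Both are RefSeq windows of 300 bases on GRCm38.p6, chr12:25096043-25096342 on the minus strand and chr4:136143572-136143871 on the plus strand. Both windows lie within the GENCODE spans given above, which begin further upstream, so the start meant here is that of RefSeq. Capitals mark GGCGCC, found once in Id2 with its first base 231 bases before that start. They also mark CAGAC or its reverse complement, found at 167 and 68 bases before the RefSeq start of Id3. GGCGCC is in 11.9% and CAGAC in 49.6% of the 32851 RefSeq promoter windows of this length. AATNCACA, in 3.60% of them, was found in none of the 6 genes with a window, which besides Bmp4, Nodal, Id2 and Id3 are Tdgf1 and Acvr2b, each with a CAGAC match. The matches describe letters in these windows and not binding.
Id2: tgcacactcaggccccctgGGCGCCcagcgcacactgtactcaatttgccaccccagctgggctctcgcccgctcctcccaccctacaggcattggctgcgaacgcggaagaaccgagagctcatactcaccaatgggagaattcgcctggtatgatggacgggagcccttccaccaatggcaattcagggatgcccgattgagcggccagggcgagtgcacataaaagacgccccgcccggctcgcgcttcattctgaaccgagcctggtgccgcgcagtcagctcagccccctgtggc
Id3: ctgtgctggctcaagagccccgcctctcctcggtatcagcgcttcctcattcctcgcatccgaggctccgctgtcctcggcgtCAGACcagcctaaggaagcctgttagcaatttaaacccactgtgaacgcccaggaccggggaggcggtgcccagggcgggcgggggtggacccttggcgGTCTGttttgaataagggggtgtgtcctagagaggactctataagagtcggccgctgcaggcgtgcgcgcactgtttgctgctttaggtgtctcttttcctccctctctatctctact

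**Figure D2:**
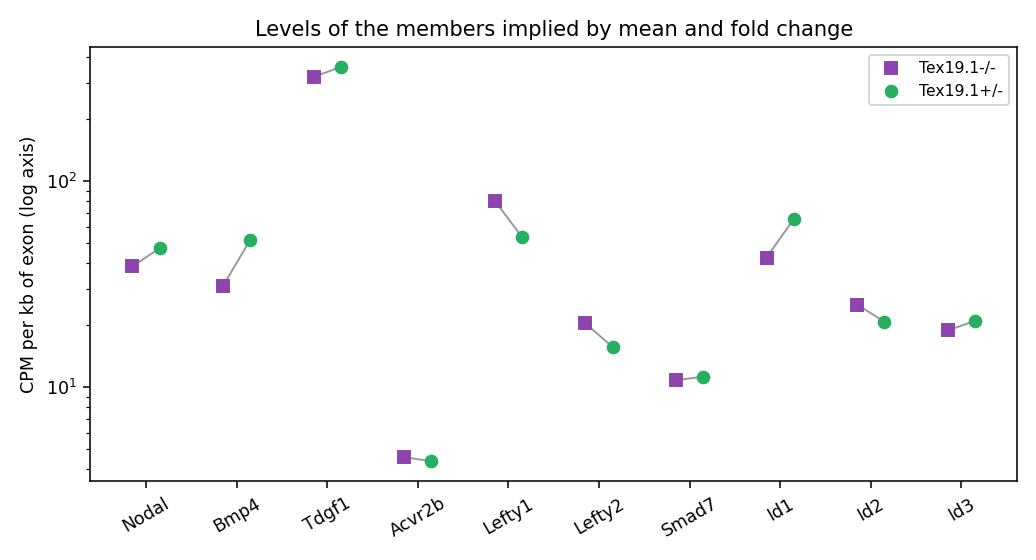
Levels of the 10 genes in CPM per kb of exon on a log axis, with Tex19.1-/- as squares on the left and Tex19.1+/- as circles on the right of each pair. Tdgf1 is the highest and Acvr2b the lowest in both genotypes, and no error can be drawn because no value per library was used.

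Per length, the order of the middle genes differed between the genotypes. In Tex19.1-/- cells Lefty1 stood at 80.2 CPM per kb, Id1 at 42.6, Nodal at 38.6 and Bmp4 at 31.1. In Tex19.1+/- cells Lefty1 stood at 53.6 CPM per kb, Id1 at 65.5, Nodal at 47.3 and Bmp4 at 51.9. So Id1 led these 4 in heterozygous cells and Lefty1 in cells without Tex19.1. The ratio of genotypes is what the fold changes measure, and whether neighbours in this order differ cannot be judged without values per library. The means over both genotypes of the remaining genes were 23.0 CPM per kb for Id2, 19.9 for Id3, 18.0 for Lefty2 and 11.0 for Smad7.

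Smad7, an inhibitory SMAD gene that both pathways induce, was at 48.9 CPM in Tex19.1-/- cells and 50.8 CPM in Tex19.1+/- cells and did not pass, with a change of -0.054 on the log2 scale of the authors' deposited table (implied standard error 0.046, 95% interval -0.14 to 0.03, adjusted p = 0.323). It lies on chromosome 18 from 75367529 to 75395935 (ENSMUSG00000025880.11).

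**Figure D3:**
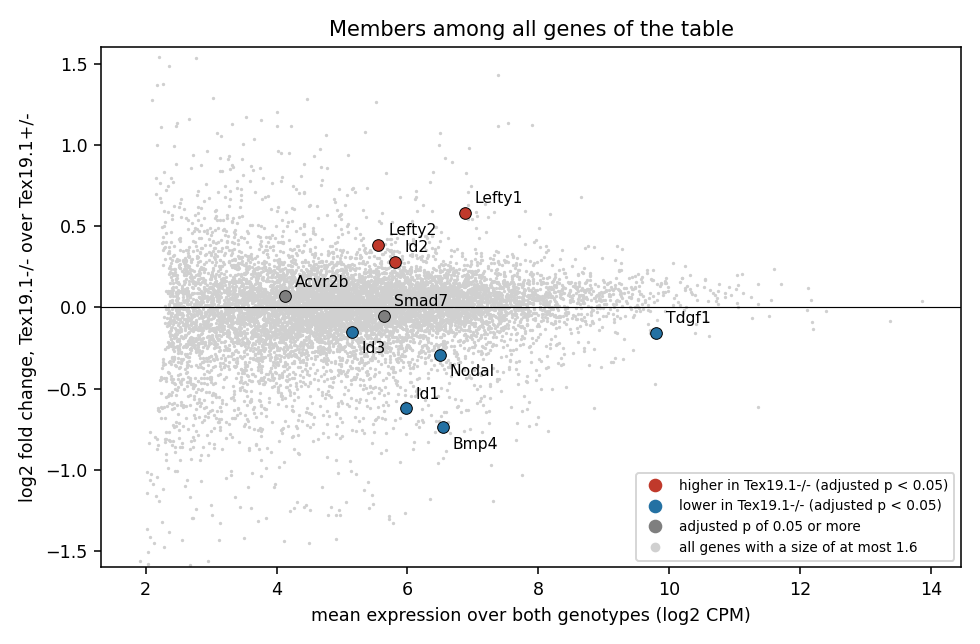
Log2 fold change against mean level in log2 CPM for all genes of the table with a size of at most 1.6 (grey) and the 10 named genes (coloured by direction and call). Bmp4, Id1 and Lefty1 lie at the edge of the cloud for their levels, and Smad7 and Acvr2b near its middle.

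Around these genes, 11 lists of pathway genes by role held 89 genes, 50 of them in the table. Of the 50, 13 rose and 21 fell, beside 25.2% higher and 26.5% lower among all genes, with a median log2 fold change of -0.07 against 0.00 over all genes of the authors' deposited table. Without the 10 genes above, 10 of 40 rose, a share near that of all genes, and 16 fell. Against genes of like level 1 of the 50 passed as higher and 7 as lower, beside 1.89% higher and 4.32% lower among all genes. Most of the calls below do not pass that criterion. Among the lists with more than 1 measured gene, the median farthest from 0 was -0.59. This was the list of Nodal and activin ligands and the convertases that cleave their precursors, which also holds Tgfb1. Of its 6 genes 5 fell and 1 rose. Inhbb, which encodes the subunit of activin B, had the largest fall of all 50 genes, -1.21 on the log2 scale of the authors' deposited table (adjusted p = 1.04e-162). Pcsk6, whose product PACE4 cleaves the Nodal precursor, was at -0.69 (adjusted p = 1.59e-69) and Tgfb1, a TGF-beta ligand gene, at -0.68 (adjusted p = 2.67e-15) per the authors' deposited table. The list's remaining members besides Nodal, named after their values were seen, were the convertase gene Furin at -0.49 and the ligand gene Gdf3 at 0.18 in the authors' deposited table.

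Calls in the receptor and transducer lists went both ways on the Nodal side, and those on the BMP side were falls. Among all genes 25.2% were higher and 26.5% lower, and whether these small lists differ from those shares was not tested. Acvr2a, Acvr2b and Smad4 are in lists of both sides. Of 5 genes in the Nodal and activin receptor and co-receptor list 1 rose and 2 fell. The gene that rose, Tgfbr1, encodes a type I receptor of TGF-beta and was at 0.16 (adjusted p = 0.00201) per the authors' deposited table. All other calls of this list were falls. The type I receptor gene Acvr1b was at -0.22 (adjusted p = 5.64e-05) and the type II receptor gene Acvr2a at -0.10 (adjusted p = 0.165) per the authors' deposited table. Of 9 transducers and partners 3 rose and 2 fell. The receptor-activated SMAD genes went opposite ways, Smad2 at -0.22 (adjusted p = 3.12e-07) and Smad3 at 0.19 (adjusted p = 0.00641) per the authors' deposited table, and the repressor gene Tgif1 was at 0.17 (adjusted p = 6.72e-06). On the BMP side 3 of 7 receptor and co-receptor genes fell and 0 rose. They were the co-receptor gene Eng at -0.57 (adjusted p = 1.27e-29), the type I receptor gene Bmpr1a at -0.23 (adjusted p = 4.05e-08) and the type II receptor gene Bmpr2 at -0.22 (adjusted p = 5.95e-05) per the authors' deposited table. Of the 3 BMP transducer genes Smad1 fell, at -0.26 (adjusted p = 0.000508), while Smad5 at -0.08 (adjusted p = 0.131) and the shared Smad4 at -0.04 (adjusted p = 0.436) did not pass in the authors' deposited table.

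Antagonist and target genes were split in both pathways, beside 25.2% higher and 26.5% lower among all genes. Of 7 Nodal and activin antagonist genes the 2 Lefty genes rose and 2 fell, Pmepa1, a feedback inhibitor of SMAD2 and SMAD3, at -0.62 (adjusted p = 1.38e-32) and Dact2 at -0.30 (adjusted p = 3.35e-11) per the authors' deposited table, while the phosphatase gene Ppm1a was at -0.04 (adjusted p = 0.313). The target list of that pathway, which shares Lefty1, Lefty2, Nodal, Smad7, Skil and Pmepa1 with the lists above, had 2 of 7 up and 2 down. Its members Eomes at -0.09 (adjusted p = 0.35) and Skil at 0.03 (adjusted p = 0.478) per the authors' deposited table, did not pass. Of 7 BMP antagonist genes 3 rose and 2 fell: Smad6, an inhibitory SMAD gene, was at 0.43 (adjusted p = 2.16e-07), against -0.40 for Twsg1 (adjusted p = 3.28e-17) and -0.44 for Chrd (adjusted p = 1.18e-06), extracellular binders of BMPs, in the authors' deposited table. Of 8 BMP target genes 3 rose and 3 fell. Beside Id1, the phosphatase gene Dusp9 was lower, at -0.58 (adjusted p = 2.47e-53), and beside Id2 the genes Smad6 and Bambi were higher, Bambi at 0.15 (adjusted p = 0.0339) per the authors' deposited table. Of the E-protein genes, whose products the Id proteins bind, Tcf3 at 0.26 (adjusted p = 3.72e-09) and Tcf12 at 0.13 (adjusted p = 0.0289) rose, and Tcf4 at -0.06 (adjusted p = 0.348) did not pass in the authors' deposited table.

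**Figure D4:**
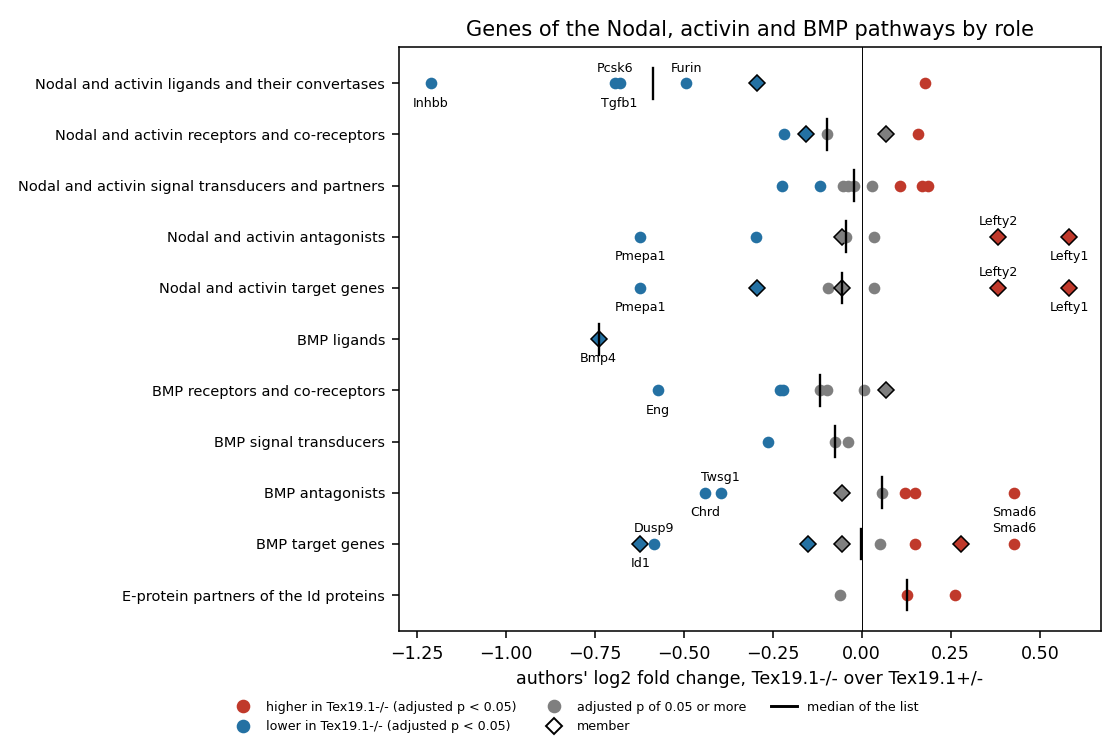
Log2 fold change, Tex19.1-/- over Tex19.1+/-, of every measured gene of the 11 pathway lists, 1 list per row, with the 10 named genes as diamonds and the list median as a black bar. The ligand and convertase list has its median at -0.59, and the antagonist and target lists hold genes on both sides of 0.

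Most genes beside Bmp4, Lefty1, Lefty2 and Id1 on their chromosomes did not change by as much as these did. Around Bmp4 the 20 nearest measured genes had a median log2 fold change of -0.02, 1 higher and 8 lower. Its direct neighbours Ddhd1 at 0.01 and Cnih1 at -0.02 in the authors' deposited table did not pass. Their midpoints lie at -764 and 395 kb from that of Bmp4. Of the 20, Lgals3 at -0.97 and Fam213a at -0.82 in the authors' deposited table, named after their values were seen, fell by more than Bmp4. Around Lefty1 the median was -0.03, with 5 higher, Lefty2 among them, and 3 lower. Tmem63a after Lefty1 was at -0.02 (adjusted p = 0.841) and Sde2 before Lefty2 at -0.05 (adjusted p = 0.227) per the authors' deposited table, and neither passed. Around Id1 the median was -0.06, but the imprinted gene H13 just before it was at -1.21 (adjusted p = 2.74e-80), Mcts2, which lies within H13 and was named after its value was seen, at 1.12 (adjusted p = 1.89e-62), and Bcl2l1 after it was at -0.01 (adjusted p = 0.833) per the authors' deposited table. Around Id3, Nodal and Tdgf1 the medians were -0.17, -0.12 and -0.10; of the 20 genes around each, 11, 10 and 11 fell, 2 rose in each set and the rest did not pass, beside 26.5% lower among all genes. E2f2 beside Id3 was at -1.02 (adjusted p = 8.64e-105) and Als2cl beside Tdgf1 at -0.68 (adjusted p = 8.87e-33) per the authors' deposited table, while Rpl11 at 0.04 and Lrrc2 at 0.10 on their other sides, and Pald1 at 0.01 and Eif4ebp2 at 0.02 beside Nodal, did not pass. Id2 had a median of 0.04 around it, with Kidins220 at -0.14 (adjusted p = 0.0131) and Rnf144a at 0.10 (adjusted p = 0.285) per the authors' deposited table. Smad7 and Acvr2b both had medians of -0.02 around them. Dym at -0.12 (adjusted p = 0.0433) and Ctif at -0.32 (adjusted p = 0.00198) flanked Smad7 and fell, and Xylb at 0.12 and Exog at -0.02 flanked Acvr2b and did not pass in the authors' deposited table.

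**Figure D5:**
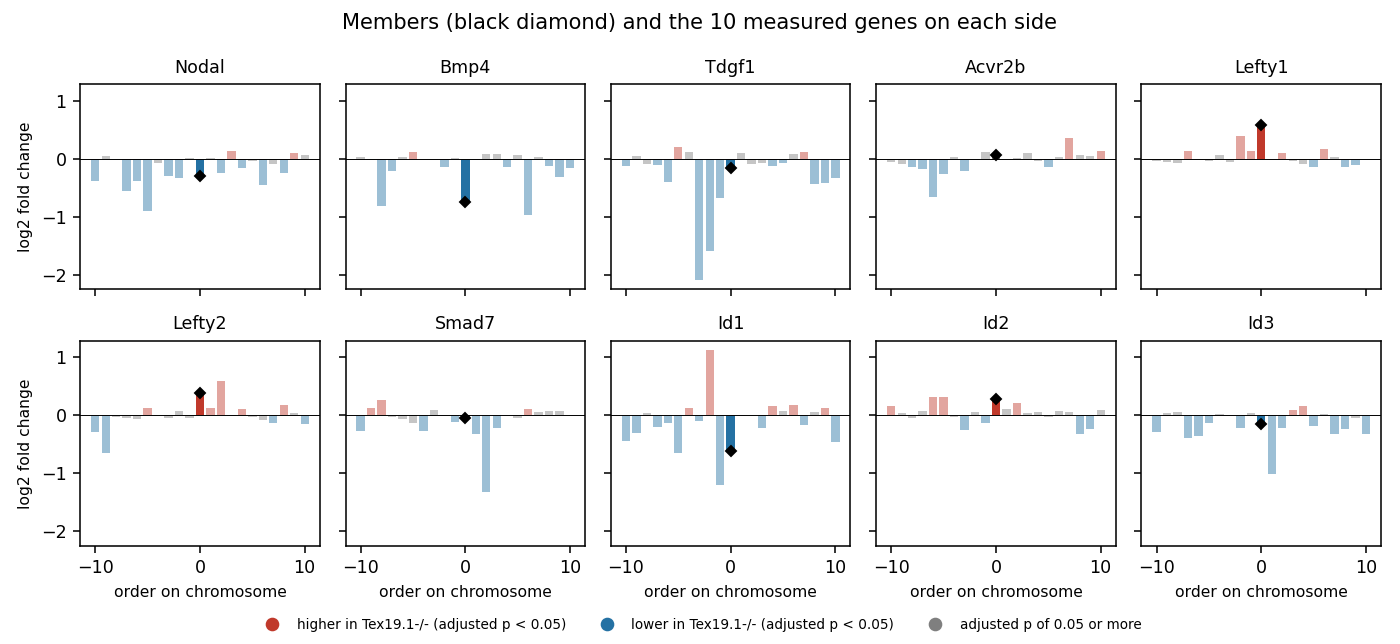
Log2 fold change, Tex19.1-/- over Tex19.1+/-, of each named gene (black diamond) and the 10 measured genes on each side in chromosomal order, coloured by direction and call. Bmp4, Lefty1 and Lefty2 stand out from most of their neighbours, whereas the bars around Id3, Nodal and Tdgf1 have medians of -0.17, -0.12 and -0.10.

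The labelled cell type and other cell types were checked with marker lists. All 10 pluripotency markers were in the table, with summed implied levels of 5949.9 CPM in Tex19.1-/- cells and 5971 CPM in Tex19.1+/- cells. Of these, 5 rose and 2 fell, beside 25.2% higher and 26.5% lower among all genes. The 3 with the smallest p-values rose, Zfp42 at 0.36, Lin28a at 0.35 and Sox2 at 0.23 in the authors' deposited table. None of the 3 passed against genes of like level. Those that fell, named after their values were seen, were Klf4 at -0.20 and Dppa5a at -0.17 in the authors' deposited table. Endoderm markers moved with the genotype: all 11 in the table, of 14 listed, fell, and their summed level was 316 CPM in Tex19.1-/- cells and 827 CPM in Tex19.1+/- cells. The 3 with the smallest p-values were Cubn at -2.93, Col4a2 at -2.23 and Col4a1 at -2.01 in the authors' deposited table. These were not the 3 largest falls: the median of the 11 was -2.08, and none of the 11 was at 0. Fewer cells of a type and less RNA per cell cannot be told apart in bulk RNA, and the part of endoderm-like cells in the changes of Bmp4, Nodal, Inhbb and the other genes above was not tested. Of 10 fibroblast and feeder markers 3 were in the table, at -0.76 for Fbn1, -0.33 for Vim and 0.23 for Fn1 in the authors' deposited table, with a sum of 1123 CPM in Tex19.1-/- cells and 1035 CPM in Tex19.1+/- cells. Of 8 mesoderm and primitive streak markers only Eomes was in the table, and it did not pass.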

How the data were processed

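RNA of Tex19.1-/- and Tex19.1+/- ES cells, 3 libraries each, was made into stranded mRNA libraries and sequenced in pairs, per the labels' protocols. Per the submitters' processing notes, the tools were Trim Galore 0.4.1 (trimming), TopHat2 2.1.0 (mapping, mm10), HTSeq 0.11.2 (counting) and edgeR (comparison); their settings, the annotation and the low-count filter are not stated there. The authors deposited, per the file headers, a log2 fold change, a mean as log2 CPM, a p-value and an adjusted p-value (FDR) for 10128 genes, with no values per library; the lowest mean was 1.82. Benjamini-Hochberg adjustment of their p-values gave their FDR within 6.7e-05.

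A count test had been planned only in case values per library were given, so the authors' tests stand, at a threshold of 0.05, and depth is unknown. Implied standard errors, levels per genotype, the comparison with the 301 genes of like level (median and 1.4826 times the median absolute deviation, with p adjusted over all genes) and lowess trends on GC content and transcript length (span 0.3) were computed in Python 3.11.15 with scipy 1.17.1 and statsmodels 0.14.6, and tested on simulated data. In the simulated data few genes changed and errors were normal, while 51.7% of genes passed here. The simulation therefore does not show how the comparison with genes of like level behaves on these data. Positions, exon lengths and transcripts come from GENCODE M21 (GRCm38): 9572 symbols matched, 136 more through older symbols in RefSeq, and 420 did not. Promoter sequences come from RefSeq (GRCm38.p6), which gave windows for 6 of the 10 genes. Lefty coding sequences were aligned with Biopython 1.88. The genes and the lists were chosen with earlier results of these data known. Beside the 10 genes and Tex19.1, the text names up to 3 genes with the smallest p-value from each list and the nearest measured genes on each side; 1 gene that this rule would name is not reported here. Alternatives were an adjusted p of 0.01, Bonferroni adjustment, genes of at least 16 CPM, the spread and the median of genes of like level, the GC and length trend, and the median of the 20 nearest genes.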

Additional observations from a re-analysis of the deposited data

How the results depend on the processing

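Of 70 values of the 10 genes under 7 alternatives, 60 kept their direction and their side of the threshold. Set against the spread of genes of like level, 1 gene passed as higher and 2 as lower, in place of 3 and 5. Of the pathway lists 1 and 7 passed in place of 13 and 21, beside 1.89% higher and 4.32% lower among all genes. Lost there were Nodal at -0.32, Lefty2 at 0.37, Tdgf1 at -0.22, Id2 at 0.25 and Id3 at -0.13, with adjusted p from 0.159 to 0.972. This criterion measures the spread of genes in place of that of libraries, and fewer genes passed it. With Bonferroni adjustment 3 of the 10 genes were lower and 7 genes of the pathway lists were higher; Tdgf1 at -0.16 and Id3 at -0.15 were lost, and Id3 also at a threshold of 0.01. Relative to the median of the 20 nearest genes 3 were lower: Nodal moved to -0.17 and passed, Tdgf1 stood at -0.054 without passing and Id3 turned to 0.018 (adjusted p = 0.812); the cause was not tested. Bmp4, Id1 and Lefty1 passed in the same direction under all 7. No setting moved the median of all genes by over 0.1 on the log2 scale. No paired analysis was possible because the table holds no values per library; for the same reason leaving out a replicate, DESeq2 and another filter on low counts were not run. What depth limits cannot be stated.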

Other observations

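Other genes around the TGF-beta superfamily, picked by their symbols after the values were seen, went both ways: of 12, 4 rose and 4 fell, beside 25.2% higher and 26.5% lower among all genes. Bmp1, which encodes a metalloprotease that processes procollagen and cleaves the BMP antagonist chordin, was lowest, at -1.58 on the log2 scale of the authors' deposited table (adjusted p = 6.87e-52). Its mean of 2.04 log2 CPM is near the lowest mean of any gene, 1.82. Against genes of like level Bmp1 passed narrowly (adjusted p = 0.0453), and none of the other genes named in this paragraph did. The kinase gene Bmp2k was at -0.52 (adjusted p = 1.31e-16) and the secreted follistatin-like gene Fstl1 at -0.20 (adjusted p = 4.59e-07) per the authors' deposited table. The genes of latent TGF-beta binding proteins, which hold TGF-beta in the matrix, differed in sign, Ltbp1 at 0.29 (adjusted p = 0.000212) and Ltbp4 at -0.18 (adjusted p = 0.000143) per the authors' deposited table. The thrombospondin genes Thbs1, whose product can activate latent TGF-beta, and Thbs3 were higher, at 0.28 (adjusted p = 0.00504) and 0.44 (adjusted p = 2.5e-08) per the authors' deposited table. Zfyve9, which encodes the SMAD anchor SARA, was at 0.01 and did not pass (adjusted p = 0.866) per the authors' deposited table.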
